A study of Homo sapiens with 42 samples.

Results

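The genes described here are 10 amino acid transporters of the plasma membrane, SLC7A5, SLC3A2, SLC7A11, SLC7A1, SLC7A6, SLC1A4, SLC1A5, SLC38A1, SLC38A2 and SLC43A1, chosen by name from a table of 57353 gene names. All 10 were in the table and all 10 were among the 12939 genes that passed the filter on low counts. RNA-seq was performed on MOLM-13, a human acute myeloid leukemia (AML) cell line whose FLT3 receptor carries an internal tandem duplication (ITD). The genotype label of every library was wild type, so no gene had been targeted in the cells used here. The cells were treated for 12 h in regular RPMI medium or in RPMI of which 50% was filtered medium conditioned by HS-5, a stromal line of human bone marrow (hBMSC-CM), so that stromal products but no added stromal cells were present. In RPMI the treatments were DMSO vehicle, 3 nM of the FLT3 inhibitor quizartinib, or quizartinib together with 10 nM of the mTOR inhibitor everolimus, called combo. The hBMSC-CM cultures received these 3 treatments or everolimus alone, at the same doses, while RPMI with everolimus as single drug is not used here. All cultures received cycloheximide, which holds ribosomes on messages, before harvest. From each of 21 cultures, 3 per condition, poly(A) RNA was sequenced from the whole lysate (input) and from the heavy polysome fraction, in which a message carries many ribosomes, giving 42 libraries. The study describes its replicates as biological, while the labels only number them and do not say that the cultures were independent. The p-values therefore measure the spread between these samples.

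Most of these carriers feed amino acids that cells cannot make, or use in large amounts, to the mTORC1 growth pathway and to protein synthesis. SLC7A5 (LAT1) is the light chain of an exchanger that takes up leucine and other large neutral amino acids, and SLC3A2 (CD98 heavy chain) is the partner that brings it to the membrane. SLC3A2 also pairs with SLC7A6, which exchanges cationic for neutral amino acids, and with SLC7A11 (xCT), which imports cystine for glutathione synthesis. SLC7A1 (CAT1) carries arginine and lysine, SLC1A5 (ASCT2) and SLC1A4 (ASCT1) exchange small neutral amino acids including glutamine or serine, SLC38A1 and SLC38A2 take up glutamine and alanine with sodium, and SLC43A1 carries branched-chain amino acids by facilitated diffusion. Several of these genes are known targets of MYC, which binds the E-box, or of ATF4, which is induced when amino acids are scarce.

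The genes lie on 7 autosomes (GRCh38, GENCODE coordinates), with SLC7A5 at chr16:87830023-87869507 on the minus strand, SLC7A1 at chr13:29509414-29595688 on the minus strand, SLC1A5 at chr19:46774883-46788594 on the minus strand, SLC3A2 at chr11:62856004-62888880 on the plus strand and SLC7A11 at chr4:138164097-138242349 on the minus strand. The stretches of promoter that hold the E-box and the ATF4 motif were picked for printing after 7 of the transporters were seen to fall under quizartinib. A link between a motif and a fall was not tested. Matches of the antioxidant response element, held by 5 of the 9 transporters with a window, are counted below and not printed. Promoter windows from 250 bases before to 50 bases after the annotated start came from RefSeq (GRCh38.p14), which listed 16 windows for 9 of the transporters, and SLC7A11 had no entry. Each line gives 30 bases in the direction of the gene with the motif in capitals, and both strands were searched.
SLC7A5, chr16:87869620-87869649, minus strand, E-box CACGTG: ggccggacgacgCACGTGctccgagctggg
SLC43A1, chr11:57515797-57515826, minus strand, E-box CACGTG: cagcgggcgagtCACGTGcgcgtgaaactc
SLC1A5, chr19:46787326-46787355, minus strand, E-box CACGTG: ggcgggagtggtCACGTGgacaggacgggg
SLC1A5, chr19:46784893-46784922, minus strand, start of another transcript, C/EBP-ATF core TGATGNAA: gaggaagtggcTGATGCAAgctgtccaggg
SLC7A1, chr13:29595663-29595692, minus strand, C/EBP-ATF core: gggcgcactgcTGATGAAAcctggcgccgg
SLC38A1, chr12:46266502-46266531, minus strand, C/EBP-ATF core: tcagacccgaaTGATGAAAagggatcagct
SLC1A4, chr2:64989381-64989410, plus strand, C/EBP-ATF core on the opposite strand: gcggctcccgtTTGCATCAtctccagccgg
SLC3A2, chr11:62881719-62881748, plus strand, C/EBP-ATF core on the opposite strand: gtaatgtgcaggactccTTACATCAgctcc

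The E-box was present in windows of 3 of the 9 transporters and in 8.77% of all 27305 genes with a window (7.26% of 35116 windows). The C/EBP-ATF core, to which ATF4 binds, was present in 5 of the 9 and in 4.46% of all genes (3.62% of windows). TGACGTCA, the cAMP response element, was present in none of the 9 and in 2.25% of all genes (1.85% of windows), and TGACNNNGC, the antioxidant response element, in 5 of the 9 and in 16.06% of all genes (13.35% of windows). The shares by gene do not account for windows per gene, with 16 windows for the 9 transporters and 35116 for the 27305 genes. SLC1A5 held the E-box 50 bases before one start and the C/EBP-ATF core 97 bases before another. In SLC7A1 and SLC3A2 the core began at bases 8 and 38 of the transcript, after the start. SLC3A2, SLC1A4, SLC38A1 and SLC43A1 also had more than 1 window, and each printed match lies in 1 of them. No match of one motif overlapped a match of another. A match describes letters in a window and was not measured as a binding site.

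The input libraries held 19439370 to 37161265 counts and the polysome libraries 21459383 to 38786394. Levels are given as CPM, the count scaled to a common library total, after that total was multiplied by a TMM factor, which sets most genes equal between libraries and was 1.06 to 1.25 for input and 0.705 to 1.04 for polysomes. Mitochondrial messages took 3.17 to 10.2% of input counts and 0.0734 to 0.713% of polysome counts. Nothing was added to the samples that would measure the total RNA of a culture, and in bulk RNA fewer cells expressing a gene cannot be told apart from less of its RNA per cell. All 9 MOLM-13 identity genes, FLT3, CD33 and MPO among them, had counts, and their summed input level was 1280 to 2102 CPM. The 3 everolimus cultures stood apart in having little spread, with a median SD over all genes of 0.0982 (log2) in input against 0.201 to 0.312 in the other conditions, so counts that rest on the shared spread are also given without their libraries where that changed them.

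The transporters covered a wide range of levels in untreated cells. Per kilobase of transcript, in RPMI vehicle input, SLC1A5 stood at 145 ± 22.6 CPM (SD, n = 3), above 96% of 12898 genes with a known length. SLC3A2 and SLC7A5, the chains of one exchanger, lay side by side at 94.6 ± 11.1 and 94.4 ± 12.8 CPM per kilobase. SLC43A1 followed at 34.7, SLC1A4 at 21.0, SLC7A1 at 17.9 and SLC38A2 at 14.9 CPM per kilobase. SLC38A1 at 6.55 and SLC7A6 at 4.67 were in the middle of all genes, and SLC7A11 at 1.06 was above only 13.6% of them. Without a stated strand setting, reads from SLC7A6 cannot be told apart from those of SLC7A6OS, which overlaps it on the other strand and held 540 to 2248 counts in a library.

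**Figure D1:**
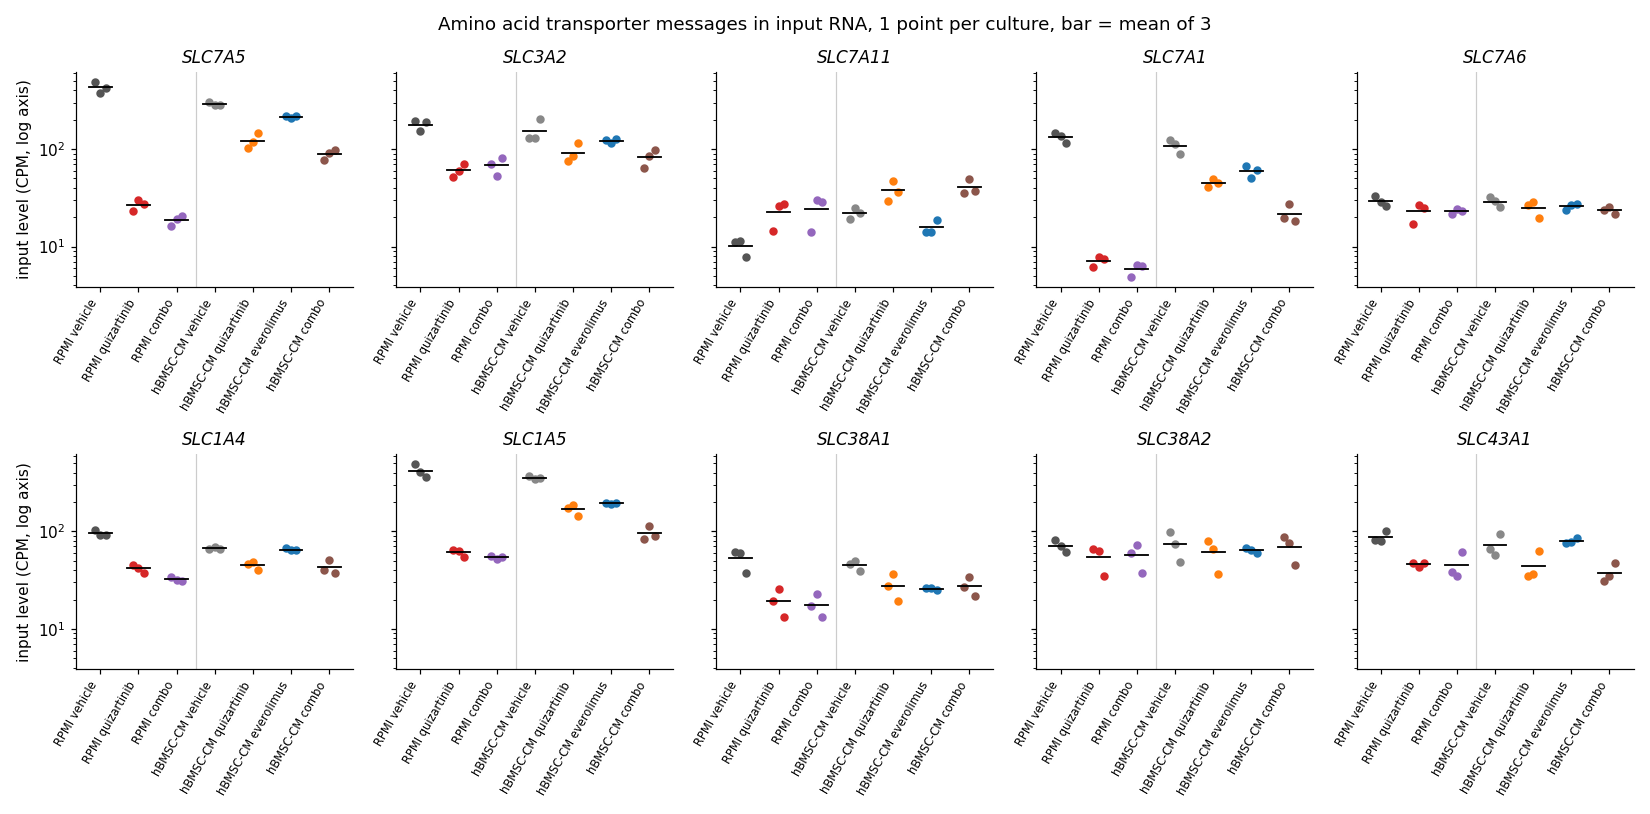
Input level of each transporter (CPM, log axis) in the 7 conditions, with 1 point per culture and a bar at the mean of 3. SLC7A5, SLC7A1 and SLC1A5 drop furthest under quizartinib in RPMI, SLC7A6 and SLC38A2 keep overlapping ranges, and SLC7A11 is lowest in RPMI vehicle.

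The first comparison asked what FLT3 inhibition did to the transporters in RPMI. Quizartinib lowered 7 of the 10, most of all the arginine carrier SLC7A1 and the leucine carrier SLC7A5, and raised the cystine carrier SLC7A11 alone. By the quasi-likelihood test of edgeR, adjusted by Benjamini-Hochberg over all genes tested and called at an adjusted p under 0.05, 34.6% of all genes passed in this comparison, against 8 of the 10 transporters. The median log2 change was -1.32 over the transporters and 0.08 over all genes.

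SLC7A5 input was 492, 377 and 420 CPM in the 3 vehicle cultures and 23.0, 30.2 and 27.3 CPM in the quizartinib cultures. The groups were far apart, and the quizartinib mean was 6.24% of the vehicle mean (log2 fold change -4.00, SE 0.26, adjusted p = 1.47e-13). SLC7A1 was at 146, 135 and 115 CPM with vehicle and at 6.25, 7.82 and 7.42 CPM with quizartinib, which left 5.44% of the vehicle level (log2 fold change -4.20, SE 0.28, adjusted p = 1.35e-13). For both genes every quizartinib culture was below every vehicle culture. SLC1A5 was at 489, 405 and 361 CPM with vehicle and at 64.8, 63.5 and 55.1 CPM with quizartinib. Its groups did not overlap, and 14.6% of the vehicle level was left (log2 fold change -2.78, SE 0.28, adjusted p = 1.36e-09).

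The shared heavy chain SLC3A2 fell too, by a smaller amount than SLC7A5, though the difference between the genes was not tested. Its vehicle cultures were at 192, 154 and 189 CPM and its quizartinib cultures at 52.4, 59.9 and 69.9 CPM, a log2 fold change of -1.55 (SE 0.26, adjusted p = 1.49e-05). SLC38A1, a sodium-coupled glutamine carrier, fell from 53.0 ± 13.2 to 19.4 ± 6.20 CPM (log2 fold change -1.45, adjusted p = 6.45e-05). SLC1A4 fell from 103, 92.7 and 91.8 CPM to 45.7, 42.3 and 37.8 CPM (log2 fold change -1.19, adjusted p = 6.99e-06), and SLC43A1 from 87.1 ± 11.4 to 46.0 ± 2.09 CPM (log2 fold change -0.92, adjusted p = 0.00175). In all 3 genes the cultures of the 2 groups did not overlap.

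SLC7A11 went the other way, from 11.2, 11.5 and 7.85 CPM with vehicle to 14.3, 25.9 and 27.1 CPM with quizartinib. The lowest quizartinib culture was only a little above the highest vehicle culture, and the log2 fold change was 1.13 (SE 0.29, adjusted p = 0.00234). SLC7A6 and SLC38A2 did not pass the test, with log2 fold changes of -0.34 (95% interval -0.77 to 0.08, adjusted p = 0.214) and -0.38 (-1.33 to 0.56, adjusted p = 0.561). Both had overlapping groups, and over all genes the groups did not overlap for 55.7%, against 8 of the 10 transporters.

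Of 16 stromal genes 3 were high enough to be tested, and 2 of the 3, COL1A1 and TAGLN, rose with quizartinib. The summed input level of the 16 was 11.1 to 18.2 CPM in RPMI vehicle and 26.9 to 55.7 CPM in RPMI quizartinib, where COL1A1, a fibrillar collagen gene, rose from 0.948 to 20.5 CPM (log2 fold change 4.43, adjusted p = 1.52e-05). In both groups 8 of the 16 had a count, and COL3A1, THY1, LUM, POSTN, VCAM1 and IL6 were at 0 in all 21 input libraries, those of hBMSC-CM included. Other stromal genes of the list reached counts in input, up to 38.8 CPM for COL1A1, 4.73 for COL6A2 and 4.63 for COL6A1. The part of these genes in the transporter values was not tested.

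The same drug in hBMSC-CM gave smaller differences. There 5 of the 10 transporters passed the test, all lower with quizartinib, where 12.3% of all genes passed and the median change was -0.69 over the transporters and 0.01 over all genes. SLC7A5 was at 305, 283 and 286 CPM with vehicle and at 102, 119 and 145 CPM with quizartinib, so 41.8% of the vehicle level was left (log2 fold change -1.26, SE 0.24, adjusted p = 0.000572). SLC7A1 was at 123, 113 and 88.9 CPM with vehicle and at 40.9, 49.0 and 45.4 CPM with quizartinib, 41.6% of vehicle (log2 fold change -1.27, SE 0.24, adjusted p = 0.000691). The cultures of the 2 treatments were apart in both genes. SLC1A5 fell from 369, 346 and 351 CPM to 175, 185 and 145 CPM, again without overlap (log2 fold change -1.08, SE 0.27, adjusted p = 0.00625).

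SLC1A4 at -0.59 (adjusted p = 0.0392) and SLC43A1 at -0.69 (adjusted p = 0.0429) passed narrowly. The SLC43A1 groups overlapped, with 65.9, 56.7 and 93.2 CPM for vehicle and 35.1, 36.5 and 62.4 CPM for quizartinib. SLC3A2 just missed the threshold at -0.75 (95% interval -1.27 to -0.23, adjusted p = 0.0512), from 155 ± 42.1 to 92.1 ± 21.1 CPM. SLC38A1 was at -0.70 (adjusted p = 0.0817) and SLC7A11 at 0.78 (adjusted p = 0.0698), and neither pair of groups overlapped, as for 7 transporters in all and 34.1% of all genes. SLC7A6 at -0.22 and SLC38A2 at -0.27 were once more the smallest differences, and both had overlapping groups.

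How many transporters passed in hBMSC-CM depended on the fit. With the replicate number as a block within each fraction, since cultures of the same number deviated together outside the everolimus group, 8 of 10 passed and 3803 instead of 1591 of all genes. The added calls were SLC3A2 (adjusted p = 0.00108), SLC38A1 (adjusted p = 0.00552) and SLC7A11 (adjusted p = 0.0137). SLC1A4 did not pass when any 1 of the 6 cultures compared was left out (adjusted p 0.0631 to 0.107), SLC43A1 did not pass without replicate 1 or 3 of hBMSC-CM vehicle or replicate 1 or 2 of hBMSC-CM quizartinib (adjusted p 0.0608 to 0.297), and without the everolimus libraries neither passed (adjusted p = 0.0755 and 0.0867), which left 3. SLC3A2 passed without replicate 1 or 2 of hBMSC-CM vehicle or without replicate 3 of hBMSC-CM quizartinib (adjusted p 0.0336 to 0.0473).

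In hBMSC-CM the same 2 of the 3 stromal genes tested rose with quizartinib. The 16 stromal genes summed to 7.24 to 15.3 CPM with vehicle and 19.8 to 41.9 CPM with quizartinib, and 7 and 10 of them had a count. COL1A1 was at 0.633 and 12.0 CPM (log2 fold change 4.24, adjusted p = 0.000371), and the part of these genes in the transporter values was not tested.

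**Figure D2:**
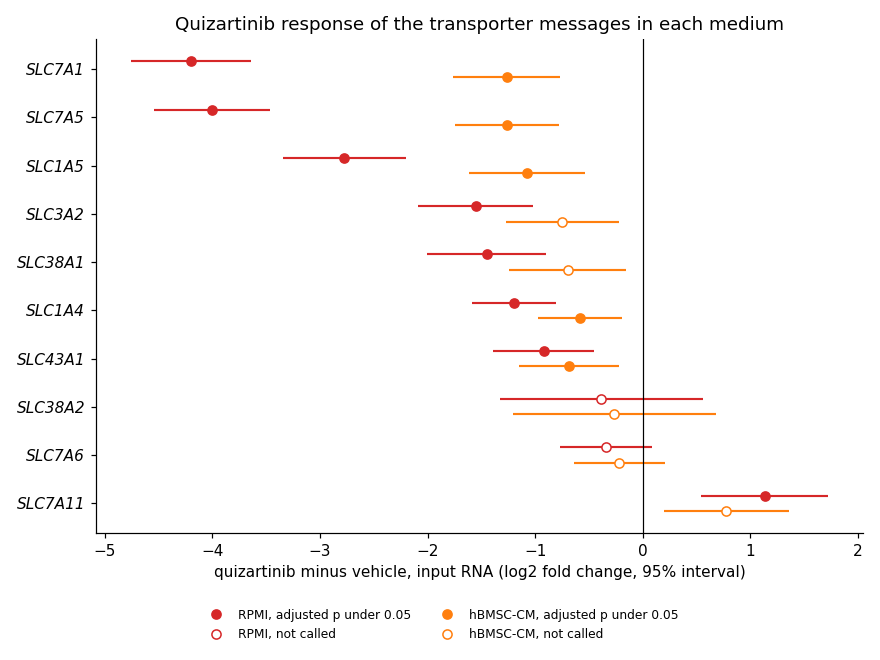
Log2 fold change of input under quizartinib against vehicle for each transporter, in RPMI and in hBMSC-CM, with bars for the 95% confidence interval of the fit over all libraries, filled points for an adjusted p under 0.05 and open points otherwise. The intervals of SLC7A5, SLC7A1 and SLC1A5 in the 2 media do not touch, while those of SLC7A6, SLC38A2 and SLC43A1 lie over each other.

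The difference between the media was tested directly as an interaction, the quizartinib effect in hBMSC-CM minus that in RPMI. Of the 10 transporters 3 passed, all with a smaller fall in hBMSC-CM, where 1.96% of all genes passed. They were SLC7A5, SLC7A1 and SLC1A5, the 3 transporters with the largest falls in RPMI. For SLC7A5 the effects of -1.26 and -4.00 differed by 2.74 on the log2 scale (SE 0.34, 95% interval 2.06 to 3.43, adjusted p = 3.62e-06), and for SLC7A1 those of -1.27 and -4.20 differed by 2.93 (SE 0.35, 2.23 to 3.64, adjusted p = 2.99e-06). The SLC1A5 difference was 1.70 (SE 0.37, 0.93 to 2.46, adjusted p = 0.00808). In all 3 genes each of the 3 replicate numbers gave a difference in the same direction. The same held for SLC3A2, SLC1A4 and SLC38A1, which did not pass here, and the share of all genes was not counted.

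For the other 7 transporters the difference ranged from -0.36 for SLC7A11 (95% interval -1.18 to 0.46) to 0.80 for SLC3A2 (0.06 to 1.54, adjusted p = 0.418). With the replicate block within each fraction, 5 passed instead of 3, the added genes being SLC3A2 (adjusted p = 0.0302) and SLC1A4 (adjusted p = 0.0301), with 876 of all genes against 254.

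The media were then compared at the same treatment. Under vehicle SLC7A11 passed and the other 9 did not, where 1.51% of all genes passed. Below an unadjusted p of 0.05 were 3 transporters and 970 of all 12939 genes. SLC7A11 was at 11.2, 11.5 and 7.85 CPM in RPMI and at 19.1, 24.6 and 22.3 CPM in hBMSC-CM. The groups did not overlap, as for 3 transporters and 16.1% of all genes, and the log2 fold change was 1.11 (SE 0.29, adjusted p = 0.0385). SLC7A5 at -0.56 (95% interval -1.04 to -0.08, adjusted p = 0.447) and SLC1A4 at -0.51 (-0.90 to -0.12, adjusted p = 0.291) were lower in hBMSC-CM in each replicate number without passing. The SLC7A11 call was lost without any 1 of the RPMI vehicle cultures (adjusted p 0.0980 to 0.287), without replicate 2 or 3 of hBMSC-CM vehicle (adjusted p = 0.17 and 0.0576) and without the everolimus libraries (adjusted p = 0.0803). The replicate block within each fraction kept it (adjusted p = 0.00339) and added SLC1A4 (adjusted p = 0.01), with 585 of all genes against 195.

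Under quizartinib 3 transporters were higher in hBMSC-CM and none lower, where 8.16% of all genes passed, and the median difference was 0.56 over the transporters and -0.03 over all genes. SLC7A1 was 7.16 ± 0.813 CPM in RPMI and 45.1 ± 4.04 CPM in hBMSC-CM (log2 fold change 2.65, SE 0.26, adjusted p = 3.73e-09). SLC7A5 was 26.8 ± 3.65 and 122 ± 22.0 CPM (log2 fold change 2.18, SE 0.25, adjusted p = 5.75e-08), and SLC1A5 was 61.1 ± 5.28 and 168 ± 20.7 CPM (log2 fold change 1.46, SE 0.27, adjusted p = 0.000226). In these 3 and in SLC3A2 and SLC7A11 the cultures of the media did not overlap, as for 29.8% of all genes. With the replicate block within each fraction SLC3A2 at 0.60 (adjusted p = 0.183 without the block and 0.013 with it) and SLC7A11 at 0.75 (0.116 and 0.02) passed too, with 2275 of all genes against 1056.

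Under combo 2 transporters passed, both higher in hBMSC-CM, where 5.36% of all genes passed. SLC7A5 was 18.8 ± 2.17 CPM in RPMI and 88.4 ± 10.4 CPM in hBMSC-CM (log2 fold change 2.23, SE 0.25, adjusted p = 3.8e-08), and SLC7A1 was 5.88 ± 0.878 and 21.8 ± 4.88 CPM (log2 fold change 1.89, SE 0.25, adjusted p = 1.92e-06). SLC1A5 differed by 0.83 (95% interval 0.29 to 1.37, adjusted p = 0.063), with no overlap between 54.5 ± 1.95 and 96.6 ± 16.1 CPM. It passed with DESeq2, library totals alone, no filter, a filter at 10 CPM, the block over both fractions or only the libraries compared (adjusted p 0.00754 to 0.0416). Groups did not overlap for 5 transporters and for 21.5% of all genes. The replicate block within each fraction raised the count to 6, adding SLC1A5 (adjusted p = 0.000718), SLC7A11, SLC1A4 and SLC38A1, with 1372 of all genes against 693.

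Adding everolimus to quizartinib was compared in each medium. In RPMI no transporter passed in edgeR, DESeq2 or limma voom, where 0.00773% of all genes passed in edgeR. Below an unadjusted p of 0.05 were 1 transporter and 172 of all 12939 genes. SLC7A5 was 23.0, 30.2 and 27.3 CPM with quizartinib and 16.5, 19.1 and 20.8 CPM with combo, so that every combo culture was lower (log2 fold change -0.51, SE 0.24, adjusted p = 1). SLC1A4 also had groups apart, as 7.57% of all genes did, at 41.9 ± 3.98 and 32.1 ± 1.75 CPM.

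In hBMSC-CM no transporter passed in edgeR either, where 0.24% of all genes passed, each of those lower with combo. Below an unadjusted p of 0.05 were 2 transporters and 789 of all 12939 genes. SLC7A1 was nearest, at 40.9, 49.0 and 45.4 CPM with quizartinib and 19.6, 27.4 and 18.3 CPM with combo (log2 fold change -1.05, SE 0.24, adjusted p = 0.0518). SLC1A5 was at 175, 185 and 145 CPM with quizartinib and 84.3, 115 and 90.7 CPM with combo (log2 fold change -0.80, 95% interval -1.34 to -0.26, adjusted p = 0.319). SLC7A5 was at -0.46 (-0.94 to 0.01, adjusted p = 0.85), and these 3 were the transporters whose groups did not overlap, as 14.7% of all genes did. SLC7A1 passed without replicate 1 of hBMSC-CM quizartinib (adjusted p = 0.0473) and without replicate 2 of hBMSC-CM combo (adjusted p = 0.0304), and 1 transporter passed in DESeq2 and none in limma voom. With the replicate block within each fraction SLC7A1 (adjusted p = 0.000452) and SLC1A5 (adjusted p = 0.00559) were lower with combo, with 380 of all genes against 31.

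Everolimus alone was given in hBMSC-CM only. Mitochondrial messages took 3.67, 4.08 and 4.25% of input counts in the everolimus cultures and 7.05, 3.19 and 3.17% in the vehicle cultures. The labels do not say whether these cultures were handled together, so drug and handling cannot be told apart here. No transporter passed in edgeR or limma voom and 1 did in DESeq2, where 0.41% of all genes passed in edgeR. Below an unadjusted p of 0.05 were 3 transporters and 1123 of all 12939 genes. The lowest adjusted p was that of SLC7A1, which was 109 ± 17.7 CPM with vehicle and 67.3, 50.5 and 61.5 CPM with everolimus (log2 fold change -0.86, 95% interval -1.35 to -0.37, adjusted p = 0.105). SLC1A5 was at 355 ± 12.5 and 195 ± 2.40 CPM (log2 fold change -0.87, -1.40 to -0.33, adjusted p = 0.16), and SLC38A1 at 46.0, 50.1 and 38.9 CPM with vehicle and 25.9 ± 0.724 CPM with everolimus (log2 fold change -0.80, -1.34 to -0.25, adjusted p = 0.232). Groups were apart for 6 of the 10 transporters and for 27.7% of all genes. With the replicate block within each fraction SLC7A1 (adjusted p = 0.00261), SLC1A5 (adjusted p = 0.0019) and SLC38A1 (adjusted p = 0.016) were lower with everolimus, with 675 of all genes against 53, though the everolimus libraries did not follow the replicate numbers. SLC7A1 also passed in DESeq2 (adjusted p = 0.0405), and SLC1A5 with only the libraries compared (adjusted p = 0.0178).

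Ranked by mean, the 7 conditions of SLC7A5 each stood clear of the next, from RPMI vehicle (430 ± 58.3 CPM) through hBMSC-CM vehicle (292 ± 12.0), everolimus (215 ± 5.34), quizartinib (122 ± 22.0) and combo (88.4 ± 10.4) to RPMI quizartinib (26.8 ± 3.65) and RPMI combo (18.8 ± 2.17). The conditions were sorted by these same means, and the share of all genes with such an order was not counted. SLC7A1 and SLC1A5 followed the same order, except that RPMI vehicle overlapped hBMSC-CM vehicle and RPMI quizartinib overlapped RPMI combo in both. SLC7A6 and SLC38A2 had no neighbours in their order that were apart. SLC7A11 was highest in hBMSC-CM combo at 40.7 ± 7.37 CPM and lowest in RPMI vehicle at 10.2 ± 2.05 CPM, and its 4 highest conditions, quizartinib and combo in both media, overlapped with their neighbours.

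As SLC3A2 serves several light chains, each light chain was also set against it within a culture. The ratio of SLC7A5 to SLC3A2 input, each per kilobase, was 1.06, 1.01 and 0.922 in RPMI vehicle and 0.181, 0.209 and 0.162 in RPMI quizartinib. It was 0.968, 0.899 and 0.582 in hBMSC-CM vehicle and 0.558, 0.578 and 0.519 in hBMSC-CM quizartinib. In each medium the quizartinib cultures were all below the vehicle cultures, and under quizartinib every hBMSC-CM culture was above every RPMI culture. With combo the ratio was 0.117 ± 0.0268 in RPMI and 0.448 ± 0.0433 in hBMSC-CM, and with everolimus alone it was 0.730 ± 0.0121.

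For the other 2 light chains the ratio to the same heavy chain was higher with quizartinib. SLC7A11 per SLC3A2 was 0.0114 ± 0.00325 in RPMI vehicle and 0.0712 ± 0.0159 in RPMI quizartinib, and 0.0290 ± 0.00776 and 0.0820 ± 0.0240 in hBMSC-CM. SLC7A6 per SLC3A2 was 0.0497 ± 0.00709 and 0.114 ± 0.0188 in RPMI without overlap, and 0.0598 ± 0.0191 and 0.0861 ± 0.0307 in hBMSC-CM with overlap. Over 24 ratio comparisons by the exact two-sided permutation test, 3 cultures against 3 cannot give a p below 0.1, so none could pass, and the lowest value after Benjamini-Hochberg adjustment over the 24 was 0.24.

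**Figure D3:**
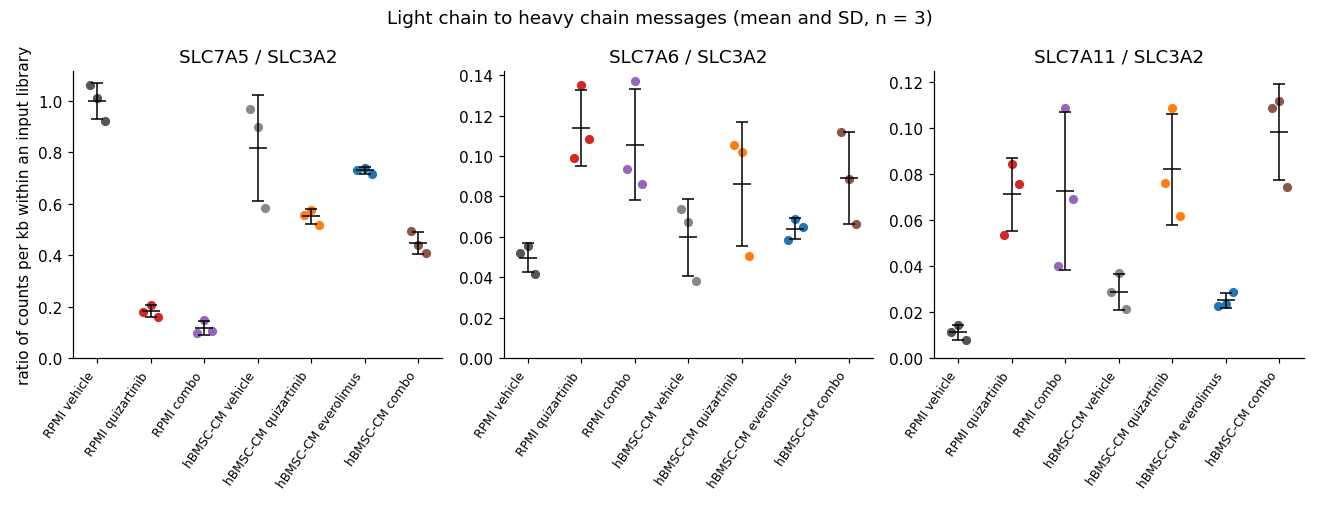
Ratio of each light chain (SLC7A5, SLC7A6, SLC7A11) to the heavy chain SLC3A2 in input, each per kilobase of transcript, on linear axes from 0 that differ between the panels, with 1 point per culture and bars for the mean ± SD of 3. The mean SLC7A5 ratio is 0.998 in RPMI vehicle and 0.184 in RPMI quizartinib, and the mean SLC7A11 ratio is 0.0114 and 0.0712.

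The second readout was the heavy polysome level relative to input. Averaged over the 7 conditions, all 10 passed, 6 higher in polysomes and 4 lower. Most genes passed here too, 86.2% of all, with 42.1% higher and 44.1% lower, so a call on either side does not mark out the transporters. SLC1A5 was 1.65 higher on the log2 scale (SE 0.10, adjusted p = 6.23e-17), SLC7A5 1.62 (SE 0.09, adjusted p = 4.65e-18), SLC1A4 1.5 and SLC3A2 1.49 (adjusted p = 1.36e-19 and 4.93e-16). SLC43A1 was 1.16 higher, and all 5 were above their input in each of the 21 cultures. The share of all genes on one side in all 21 cultures was not counted. SLC7A1 was 0.59 higher (SE 0.09, adjusted p = 4.04e-07) and above its input in 17 of the 21 cultures.

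SLC38A1 at -1.61 (SE 0.10, adjusted p = 2.3e-16), SLC38A2 at -1.45 and SLC7A11 at -1.36 were below their input in all 21 cultures. SLC7A6 at -0.44 (SE 0.08, adjusted p = 5.87e-06) was above its input in 1 of the 21 cultures. Among these transporters SLC38A1 and SLC38A2 stood on the low side and SLC1A4 and SLC1A5 on the high side, and no test by family was made. As SLC1A5 also carries glutamine, glutamine carriers lay on both sides. Scaling by library totals alone moved the median of all genes from -0.03 to -0.43, and there SLC7A1 was at 0.18 and did not pass (adjusted p = 0.104), while the other 9 kept their side and passed.

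In single conditions the SLC7A5 difference between polysomes and input, as log2, was 1.94, 1.80 and 0.95 in the RPMI vehicle cultures and 1.53, 1.83 and 1.2 in the RPMI quizartinib cultures. Over the 7 conditions its mean ran from 1.31 in hBMSC-CM everolimus to 1.80 in RPMI combo, with a median SD within a condition of 0.315. SLC7A1 ran from 0.17 in RPMI vehicle to 0.83 in RPMI combo with a median SD of 0.446, and SLC38A2 from -1.87 in RPMI vehicle to -1.05 in RPMI quizartinib with a median SD of 0.725. The cultures of SLC7A1 in RPMI vehicle were at 0.64, -0.39 and 0.27 and those in RPMI combo at 1.12, 0.56 and 0.80, which overlapped. SLC38A1 was at -1.93, -1.93 and -1.83 in RPMI vehicle and at -0.96, -1.24 and -0.82 in RPMI combo, which did not overlap. These 2 conditions were picked as its lowest and highest mean and were not tested against each other. The share of all genes whose lowest and highest conditions did not overlap was not counted. SLC1A4 ran from 1.36 in RPMI vehicle to 1.67 in RPMI combo and had the smallest median SD within a condition of the 5 highest, 0.249.

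**Figure D4:**
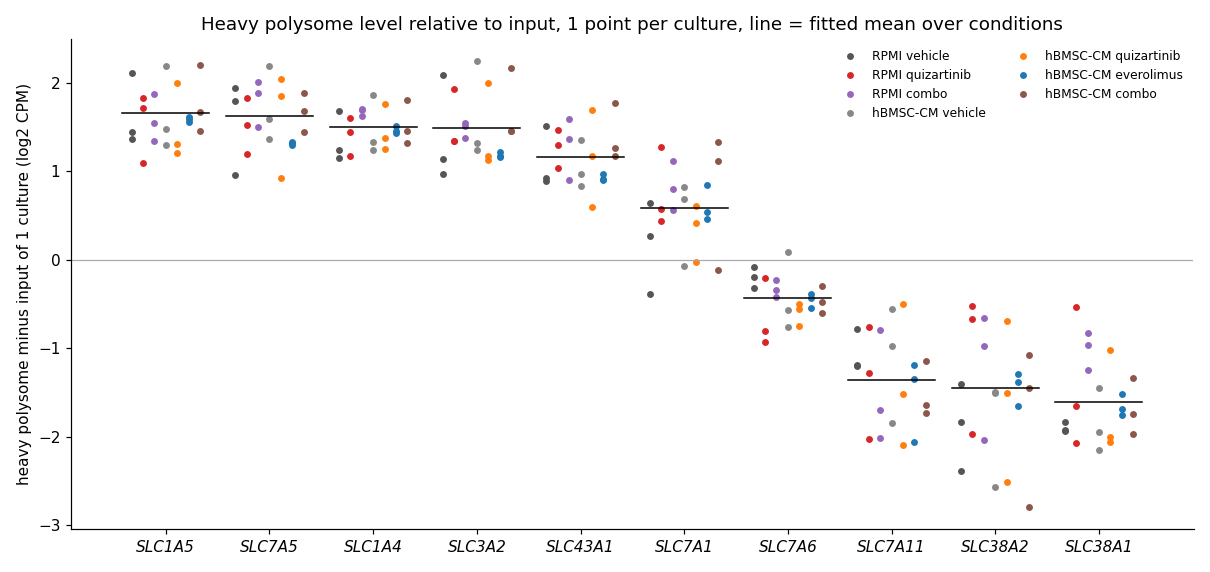
Log2 level in heavy polysomes minus log2 level in input for each transporter and condition, with 1 point per culture and a line at the fitted mean over the 7 conditions. SLC1A5, SLC7A5, SLC1A4, SLC3A2 and SLC43A1 lie above 0 in all 21 cultures, SLC7A11, SLC38A1 and SLC38A2 below 0 in all 21.

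Whether a treatment or medium shifted a transporter between input and polysomes was tested as the change in polysomes minus the change in input. No transporter passed in any of these 9 comparisons in edgeR, DESeq2 or limma voom, and none was below an unadjusted p of 0.05. Of all genes 1.55% passed for quizartinib against vehicle in RPMI, and 2014 were below an unadjusted p of 0.05. There the transporters ranged from -0.49 for SLC7A6 to 0.79 for SLC38A2 (adjusted p 0.46 to 0.987). In the other 8 comparisons 0% of all genes passed, with 93 to 624 genes below an unadjusted p of 0.05, and 0 to 13 passed in DESeq2 and 0 in limma voom. With the replicate block within each fraction 1513 genes passed instead of 201 for quizartinib in RPMI, and 0 to 17 in the other 8, still with no transporter among them.

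The intervals bound what could have been missed. For SLC7A5 under quizartinib in RPMI the relative change was -0.08 (95% interval -0.75 to 0.60) beside its fall in input, and its polysome mean was 5.91% of vehicle where its input mean was 6.24%. For SLC7A1 it was 0.54 (-0.16 to 1.23), and for SLC1A5 -0.12 (-0.87 to 0.64). In hBMSC-CM the SLC7A5 value was -0.15 (-0.82 to 0.52) with quizartinib and -0.46 (-1.13 to 0.22) with everolimus. With everolimus SLC7A11 was at -0.47 (-1.31 to 0.36) and SLC3A2 at -0.43 (-1.17 to 0.31). For SLC38A2 the interval of the RPMI quizartinib value, -0.55 to 2.14, spanned more than that of any other transporter in that comparison.

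For likeness, the input profiles of the 7 conditions, each relative to the mean of the gene, were compared by root mean square difference in log2 units, as a description over 7 points that share libraries. Among 12938 genes SLC7A5 was nearest to KCTD15 (0.144), PUS7 (0.197), a pseudouridine synthase, and SLC7A1 (0.213), against a median over all genes of 1.62. SLC7A1 had SLC7A5 at rank 4, after PUS7 (0.129), IFRD2 (0.159) and BEND3 (0.207). SLC1A5 was nearest to EPOP (0.0692), and the closest transporter to it was SLC3A2 at 0.555. SLC3A2 and SLC1A4 were each other's closest transporter at 0.187, as were SLC7A6 and SLC38A2 at 0.0877. SLC7A11 was the transporter farthest from its closest one, at 0.703 from SLC38A2, and it was 2.00 from SLC7A1.

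Of 29 other plasma membrane amino acid transporters, 6 were high enough to be tested. Under quizartinib in RPMI 3 of the 6 fell and 1 rose, where 18% of all genes fell and 16.6% rose. The glutamine carrier SLC38A5 fell from 94.1 ± 8.82 to 6.82 ± 2.07 CPM (log2 fold change -3.79, adjusted p = 4.09e-13), the arginine carrier SLC7A2 fell too (log2 fold change -3.07), as did SLC36A4 (-0.87), and SLC43A2, a leucine carrier of the same family as SLC43A1, rose from 37.5 ± 4.97 to 145 ± 27.4 CPM (log2 fold change 1.95, adjusted p = 6.81e-05). In hBMSC-CM SLC38A5 fell by 1.94 on the log2 scale (adjusted p = 3.16e-06), SLC7A2 fell by 1.35, and SLC43A2 was at 1.14 (adjusted p = 0.0322), 3 of the 6 where 12.3% of all genes passed. The SLC43A2 call in hBMSC-CM was lost without replicate 1 or 3 of vehicle, without replicate 1 or 2 of quizartinib, and without the everolimus libraries (adjusted p 0.0515 to 0.137). The quizartinib effect differed between the media for 2 of the 6, where 1.96% of all genes passed, SLC38A5 by 1.85 (adjusted p = 0.0011) and SLC7A2 by 1.72 (adjusted p = 0.019).

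The shares of the next lists that passed in RPMI lay near the 34.6% of all genes. Of 8 lysosomal amino acid transporters tested, 3 rose and none fell under quizartinib in RPMI, and none passed in hBMSC-CM. SLC15A3, a peptide and histidine carrier, rose by most in RPMI (1.81, adjusted p = 0.000175), at low levels of 1.25 CPM with vehicle and 4.38 CPM with quizartinib. Of 34 genes that sense amino acids upstream of mTORC1, 5 rose and 5 fell in RPMI, from SEH1L, a GATOR2 subunit, at -1.98 to SESN3, a sestrin, at 1.70, and 2 fell in hBMSC-CM. Among 17 genes that use imported amino acids 2 rose and 4 fell in RPMI, and 1 rose and 2 fell in hBMSC-CM, where 12.3% of all genes passed. In hBMSC-CM glutamine synthetase (GLUL) rose by 0.88 (adjusted p = 0.00262) and ODC1, the first enzyme of polyamine synthesis, fell by 1.51 (adjusted p = 2.16e-05). Between media under quizartinib GLUL was higher in hBMSC-CM, at 878 ± 191 against 461 ± 76.0 CPM (log2 fold change 0.93, adjusted p = 0.00116).

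Of 13 genes of the ATF4 branch, 2 rose and 4 fell in RPMI, and 1 rose and 4 fell in hBMSC-CM, where 34.6% and 12.3% of all genes passed. CHAC1, which degrades glutathione, fell in both media, with log2 fold changes of -4.19 (adjusted p = 0.000263) and -3.79 (adjusted p = 0.00496), from low levels of 6.65 and 3.66 CPM. DDIT4, an inhibitor of mTORC1, was 43.7 ± 3.60 CPM in RPMI quizartinib and 195 ± 75.1 CPM in hBMSC-CM quizartinib (log2 fold change 2.16, adjusted p = 9.42e-08). Of 9 NRF2 targets, the class that SLC7A11 belongs to, 2 rose and 1 fell in RPMI, a share near that of all genes, with HMOX1 at 3.71 (adjusted p = 0.00454) and OSGIN1 at -3.56, and none passed in hBMSC-CM. Both were at low levels, HMOX1 at 0.564 ± 0.616 CPM with vehicle and 7.49 ± 3.64 with quizartinib, OSGIN1 at 1.93 and 0.158 CPM. HMOX1 did not pass in limma voom (adjusted p = 0.0637). SLC7A11 is listed here with the transporters and was not counted again among those 9.

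Some leading genes of these lists lost their call when 1 culture was left out, though the sign of the change was kept. In RPMI NUPR1, a stress-induced chromatin protein, was at 2.49 (adjusted p = 0.0131), and did not pass without replicate 1 of RPMI vehicle or replicate 3 of RPMI quizartinib (adjusted p = 0.0832 and 0.0694). CBS, the first enzyme from homocysteine to cysteine, was at -3.03 (adjusted p = 0.011), and did not pass without replicate 3 of RPMI quizartinib (adjusted p = 0.0557), while DBT, of branched-chain ketoacid breakdown, was at 0.73 (adjusted p = 0.00619). In hBMSC-CM CEBPB was at 0.67 (adjusted p = 0.0202) and did not pass without replicate 1 or 3 of hBMSC-CM vehicle or replicate 3 of hBMSC-CM quizartinib (adjusted p 0.0667 to 0.187). Between media under quizartinib SEH1L was higher in hBMSC-CM by 0.78 (adjusted p = 0.00553), though not without replicate 3 of either group (adjusted p = 0.0571 and 0.0532), and SESN1, a sestrin, lower at -0.83 (adjusted p = 0.00465). The lysosomal SLC15A4 was at -0.64 (adjusted p = 0.0166) and did not pass without replicate 2 or 3 of RPMI quizartinib or replicate 3 of hBMSC-CM quizartinib (adjusted p 0.0514 to 0.0732).

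FLT3, the target of quizartinib, was 245 ± 68.5 CPM in RPMI quizartinib and 53.1 ± 17.8 CPM in hBMSC-CM quizartinib (log2 fold change -2.21, adjusted p = 3.06e-07). Of the 9 identity genes 3 rose and none fell in RPMI with quizartinib, where 34.6% of all genes passed, PTPRC by most (1.36, adjusted p = 0.0115, not passing without replicate 3 of RPMI vehicle or replicate 1 of RPMI quizartinib at 0.0789 and 0.0531). MEIS1 rose in hBMSC-CM at 0.76 (adjusted p = 0.00699, and 0.0501 without replicate 3 of hBMSC-CM vehicle), and ITGAM was higher in hBMSC-CM under quizartinib at 1.33 (adjusted p = 0.0129, and 0.0748 without replicate 3 of RPMI quizartinib). The 8 lymphoid and erythroid genes summed to 1.29 to 4.02 CPM over the input libraries.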

How the data were processed

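Per the labels and the study's methods, the authors trimmed paired reads with BBDuk, aligned them with STAR 2.6.0a to hg38 with Ensembl annotation, and deposited raw read counts per gene. A strand setting is not given in the sources used here. Rows that shared a name (150 names) were summed. Genes with a mean of at least 1 count and 1 CPM were kept (12939, holding 99.8% of counts). The main test was the quasi-likelihood F test of edgeR 4.0.16 (R 4.3.3) with TMM factors and robust dispersion, on all 42 libraries as 14 group means and adjusted by Benjamini-Hochberg over all genes tested. Polysome values relative to input are an interaction with the fraction, as in the study's limma model. Library totals of 19439370 to 38786394 counts set the precision, and log2 levels used a prior count of 2.

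The members and gene lists were chosen with earlier results of these data known. All members are named, and of each other list the gene with the largest rise and fall among those called, in the quizartinib comparisons and between media under quizartinib. SLC7A2, SLC36A4 and every gene named beyond that were chosen after their values were seen. The gene lists were other plasma membrane transporters, lysosomal transporters, sensing upstream of mTORC1, use of imported amino acids, the ATF4 branch, NRF2 targets, MOLM-13 identity, stromal, and lymphoid and erythroid markers.

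Replicate numbers come from the labels. Deviations from the group mean of libraries with the same number correlated at a median of 0.47 in input and 0.491 in polysomes, over 0.1 in 21 of 24 pairs each, and the remaining pairs were those with everolimus. The number was therefore used as a block within each fraction as an alternative, given beside a result where it changed it. Other alternatives were DESeq2 1.42.0, limma voom (limma 3.58.1), RLE factors, library totals alone, no filter, a filter at 10 CPM, only the libraries compared, a block over both fractions or per culture, leaving out each culture, and, chosen after seeing the data, leaving out the everolimus libraries.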

Additional observations from a re-analysis of the deposited data

Results flagged for a closer look

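For 3 transporters the effect of quizartinib on input differed between the media by a direct test of the difference. It was smaller in hBMSC-CM by 2.74 on the log2 scale for SLC7A5, by 2.93 for SLC7A1 and by 1.7 for SLC1A5. No reason for the difference was tested.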

How the results depend on the processing

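No transporter call reversed under any alternative, and the calls of SLC7A5, SLC7A1 and SLC1A5 in the input comparisons passed under all of them. For quizartinib against vehicle in hBMSC-CM, 5 transporters passed, against 3 with RLE factors, without the filter, with only the libraries compared or without the everolimus libraries, and 8 with limma voom, the replicate block, the block within each fraction, and that block without everolimus, 7 with DESeq2, 6 with a filter at 10 CPM and 4 with library totals alone; leaving out a culture gave 3 to 5. For hBMSC-CM against RPMI under vehicle, 1 passed, against 0 with only the libraries compared or without everolimus, 2 with the block within each fraction and 3 with that block without everolimus; leaving out a culture gave 0 to 1. Under quizartinib 3 became 5, under combo 2 became 6 and for the interaction 3 became 5 with the block within each fraction, with or without everolimus, and leaving out a culture gave 3 to 3, 2 to 2 and 3 to 3. Under combo 3 passed with DESeq2, library totals alone, no filter, a filter at 10 CPM, the replicate block or only the libraries compared. For combo against quizartinib in hBMSC-CM, 0 became 1 with DESeq2, no filter, a filter at 10 CPM or the replicate block, and 2 with the block within each fraction, with or without everolimus; leaving out a culture gave 0 to 1. For everolimus against vehicle, 0 became 1 with DESeq2 or only the libraries compared, 2 with the replicate block and 3 with the block within each fraction; leaving out a culture gave 0 to 0. The everolimus libraries did not follow the replicate numbers, so those block values pair samples by a number alone. The cause of these moves was not tested. The block changed no other transporter call.

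The number of all genes passing ranged widely over the alternatives, from 3384 to 7086 for quizartinib in RPMI (4477 as reported), 879 to 4525 in hBMSC-CM (1591), 109 to 908 between media under vehicle (195), 706 to 2984 under quizartinib (1056), 510 to 1788 under combo (693), 156 to 1275 for the interaction (254), 0 to 610 for combo against quizartinib in hBMSC-CM (31), 0 to 14 in RPMI (1), 9 to 675 for everolimus (53), and 93 to 1808 for the polysome value of quizartinib in RPMI (201). For the other polysome values (0 as reported) it reached 135 between media under quizartinib and 146 for the interaction, both with the block within each fraction without everolimus, and at most 19 in the rest. Of the 201 genes for the polysome value of quizartinib in RPMI, 17.9% were higher, against 6.35% with RLE factors and 46.2% with library totals, and for polysomes against input 48.9% against 36.5% with library totals.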
